A study of Mus musculus with 2 samples.

Results

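The genes described here are the 46 proteasome genes of the feature table, out of 32285 genes in all. They are the symbols that start with Psma, Psmb, Psmc, Psmd, Psme or Psmg followed by a number, without the immunoproteasome subunits Psmb8, Psmb9 and Psmb10. They comprised 7 alpha and 7 beta subunits of the 20S core, 6 ATPases and 3 scaffold or ubiquitin-receptor subunits of the 19S base, 8 subunits of the 19S lid, 3 chaperones of base assembly, 4 chaperones of core assembly, 5 activators, and 2 tissue-restricted core subunits, Psma8 of germ cells and Psmb11 of the thymus. The rule also took in 1 gene that is no proteasome subunit, Psmc3ip, which encodes a protein of meiotic recombination. The rule reads symbols only and uses no measured value.

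The proteasome is the barrel-shaped protease that degrades proteins tagged with ubiquitin. Its 20S core is a stack of rings of alpha and beta subunits, and the 19S cap receives, unfolds and feeds in the substrate with its ATPase ring, while other caps such as the PA28 and PA200 activators open the core without ATP. The ubiquitin system was first worked out in reticulocytes, immature red cells that clear organelles and many proteins as they mature.

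Single-cell RNA-seq of femoral bone marrow compared 1 control library with 1 double knockout (DKO) library, from mice given as 2 months old, and the number of mice in each library is not given in the sources used here. The control carried the label WT, and the methods described controls for this cross as littermates with floxed Ddx41 alleles, no VavCre and wild-type cGas. The DKO genotype was VavCre:Ddx41 fl/fl, cGAS-/-, in which VavCre deletes the floxed gene of the helicase Ddx41 in hematopoietic cells and the DNA sensor cGAS is lost in every cell. VavCre is known to act in blood cells and also in endothelial cells. The comparison asks how expression in marrow cells differs between these genotypes.

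With 1 library per genotype there is no replicate check, so intervals cover counting error only, and a difference between the libraries may be one between these mice or preparations. After filtering, 18686 control cells (median 4883 UMIs) and 13729 DKO cells (median 6904 UMIs) were kept, and 75 cell barcodes occurred in both libraries. Clusters were named from marker genes and gave 13 classes with at least 50 cells in each library, while 1 cluster stayed unnamed. Levels are given as CPM, here UMIs per 1000000 UMIs outside the 10 hemoglobin genes, since hemoglobin took up 28.4% (control) and 36.3% (DKO) of what was counted. For several directions that depended on it, the value on the all-UMI scale, with hemoglobin in the denominator, is given beside it. Other ratios near 0, and counts of them, may change sign on that scale. A gene counted as measured in a class at a mean of at least 20 CPM over both libraries, and as lower or higher past 0.5 on the log2 scale. Over all cells, 7 of 43 measured members were lower in the DKO and 0 higher, beside 5.46% and 8.64% of all genes. Over all cells Ddx41 was at 28.3 CPM in the control and 12.6 in the DKO (log2 -1.17, 95% interval -1.28 to -1.06), and Cgas at 18.9 and 11.4 (log2 -0.73, -0.86 to -0.61). The reads come from transcript 3′ ends and the deleted exons are not given in the sources used here, so remaining UMIs do not measure remaining protein.

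The upstream sequences of 3 members are shown because Psme3 and Psmd4 were the members that gained share as hemoglobin accumulated, described below, and Psmb5, the chymotrypsin-like catalytic subunit, is one of the many that lost it. Each run is the 150 bases before the annotated start, from RefSeq on GRCm38.p6, written 5′ to 3′ on the gene's strand: Psme3 at chr11:101316063-101316212 on the plus strand, Psmd4 at chr3:95042615-95042764 on the minus strand and Psmb5 at chr14:54617996-54618145 on the minus strand. Capitals mark the motif TGACNNNGC, the core of the element bound by the stress factors Nfe2l1 and Nfe2l2 with small Maf partners, of which Nfe2l1 is known to drive proteasome genes.
Psme3: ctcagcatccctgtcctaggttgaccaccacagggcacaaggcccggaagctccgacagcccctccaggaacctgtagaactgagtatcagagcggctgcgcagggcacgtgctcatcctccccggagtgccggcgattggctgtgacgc
Psmd4: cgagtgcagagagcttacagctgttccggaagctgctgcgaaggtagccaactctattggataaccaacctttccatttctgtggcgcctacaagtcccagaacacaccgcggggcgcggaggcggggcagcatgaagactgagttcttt
Psmb5: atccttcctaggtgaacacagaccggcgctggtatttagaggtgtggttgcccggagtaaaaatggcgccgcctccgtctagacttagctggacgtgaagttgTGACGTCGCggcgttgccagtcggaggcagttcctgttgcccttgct
These letters occurred in the Psmb5 window and in neither of the other windows. The 250 bases before the start were searched on both strands. The motif was in 5 of 38 members with a promoter in the table (13.2%, namely Psmb5, Psmb6, Psmc6, Psmd12 and Psmd9) and in 10.1% of all 27025 promoters. A looser form, TGANNNNGC, was in 14 of 38 members (36.8%) and in 35.1% of all promoters. The GATA letters AGATAA were in 1 member, Psmd9, and in 10.3% of all promoters. A second GATA form, TGATAA, was in 2 members, Psmd14 and Psmd8 (5.26%), and in 8.16% of all promoters. The KLF-type letters CCNCNCCC were in 17 members (44.7%) and in 45.6% of all promoters. Psmd4 held the KLF-type letters, and Psme3 did not. The members' shares thus lay near or below those of all promoters. By gene annotation on the same build, Psme3 spans chr11:101316213-101323537, Psmd4 chr3:95032694-95042614 and Psmb5 chr14:54614119-54618022. That annotation places the start of Psmb5 within its run, so the end of the Psmb5 run lies inside the gene by it.

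Proteasome transcripts took the largest share of RNA outside hemoglobin in progenitor-like and early erythroid-like cells and the smallest in neutrophil-like and plasma cell-like cells. Summed over the 46 genes, the level in control was 8505 CPM in cKit+ progenitor-like cells, 7308 in early erythroid-like cells and 7273 in monocyte-like cells. It was 3799 in late erythroid-like cells, 2924 in neutrophil-like cells and 2673 in plasma cell-like cells. The same progenitor-like class was highest in the DKO (6755 CPM), and the plasma cell-like class was again lowest (2116 CPM). In the DKO the summed level was below that of the control in all 13 classes, with the interval of the ratio below 0 in 12 of them, though the ratio in megakaryocyte-like cells became 0.07 on the all-UMI scale.

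**Figure D1:**
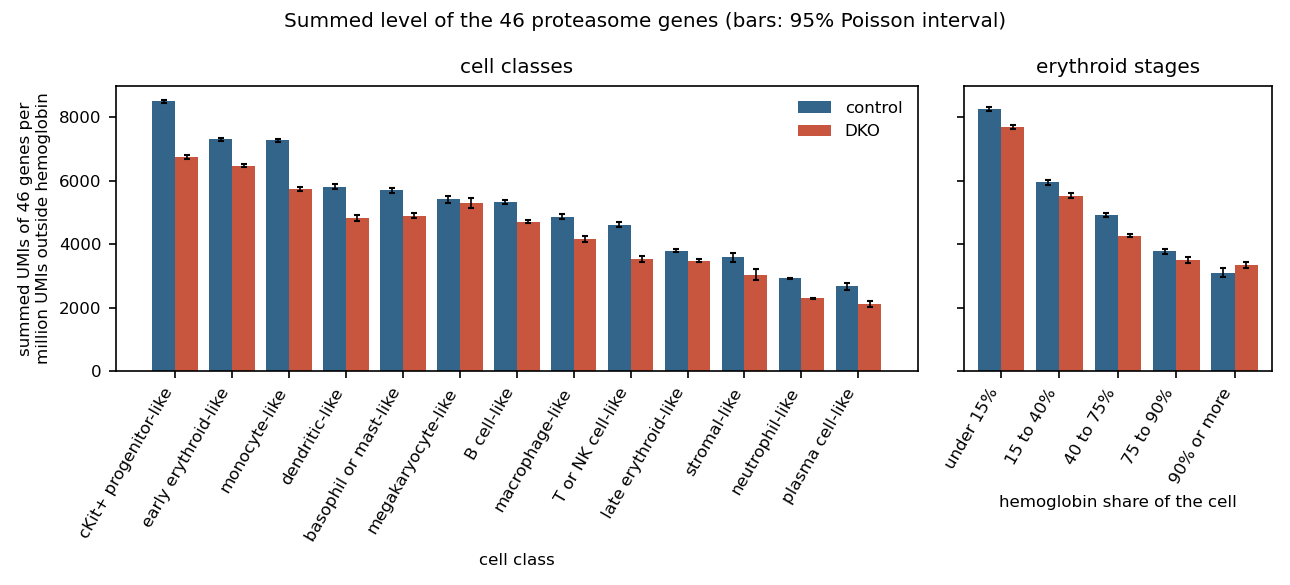
Summed level of the 46 proteasome genes, in CPM (UMIs outside hemoglobin), in the control (blue) and DKO (red) libraries, for 13 cell classes (left) and 5 erythroid stages (right), with 95% Poisson intervals for counting error. The DKO bar lies below the control bar in every class and in every stage but the last, where the control stood at 3097 and the DKO at 3354 CPM.

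Most members followed that order together. Of the 33 members measured in every class, 26 in the control and 25 in the DKO were highest in cKit+ progenitor-like or early erythroid-like cells, and 14 and 12 were lowest in late erythroid-like cells. Across the 13 classes, each member's level had a median correlation of 0.86 in the control and 0.81 in the DKO with the summed level of the other members, a description over classes that share a library and its depth. The activator genes Psme3 and Psme4 had correlations below 0.3 in both libraries. These counts and correlations were not worked out for all genes, so they do not show a trait particular to the members.

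The widest ranges over classes belonged to Psme3, Psma7 and Psma4. Psme3 encodes PA28 gamma, the nuclear activator, and stood at 1044 CPM in control late erythroid-like cells against 161 in early erythroid-like cells and 40.2 in dendritic-like cells, the lowest class, a range of 4.69 on the log2 scale. In the DKO it stood at 1340, 192 and 41.9 CPM in the same classes. Psma7, a subunit of the alpha ring, ran the other way, from 816 CPM in control and 709 in DKO monocyte-like cells down to 57.5 and 39.5 in late erythroid-like cells. Psma4, of the same ring, ranged from 292 and 239 CPM in cKit+ progenitor-like cells down to 38.6 and 21.4 in late erythroid-like cells.

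The narrowest ranges belonged to Psmb1, a beta ring subunit (1.5 in the control and 1.54 in the DKO on the log2 scale), Psme4, which encodes the PA200 activator (1.59 and 1.55), and Psma2 of the alpha ring (1.56 and 1.69). Psma2 in late erythroid-like cells, at 322 CPM in the control and 217 in the DKO, thus stayed near its levels elsewhere (373 and 279 in early erythroid-like cells). Levels of different genes were not scaled to transcript length, so each gene is compared only with itself across classes. The interferon-induced activator subunits Psme1 and Psme2 (PA28 alpha and beta), known for antigen processing, were highest in dendritic-like cells, at 424 and 322 CPM for Psme1 and 270 and 223 for Psme2 in control and DKO. That class was 1 cluster, with Siglech, Bst2 and Ccr9 among its leading genes. A cluster with Cd209a, H2-Eb1, H2-Ab1 and H2-Aa among its leading genes was named macrophage-like instead.

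Both tissue-restricted subunits were at the floor. Psmb11 had 1 UMI in the control and 5 in the DKO over all kept cells. Psma8 had 175 and 120 UMIs, or 2.05 and 1.64 CPM, and reached no more than 6.72 CPM in any class. Neither was measured in any class by the minimum of 20 CPM. Psme2b, a copy of Psme2, passed it in macrophage-like cells only, and 65.1% of the 3′ sequence of Psme2 is shared with Psme2b, so their reads may not be told apart.

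The erythroid cells were then split by the share of hemoglobin in their UMIs, into under 15%, 15 to 40%, 40 to 75%, 75 to 90% and 90% or more, as a measure of maturation. These stages held 1030, 554, 1211, 3550 and 1385 control cells and 726, 496, 1210, 1400 and 2592 DKO cells. The summed proteasome level went down from stage to stage in the control, from 8255 through 5948, 4918 and 3774 to 3097 CPM. In the DKO it was 7693, 5531, 4270, 3495 and 3354 CPM. Nearly all members lost share among UMIs outside hemoglobin, and Psme3 gained it.

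Psme3 was at 114, 178, 475, 1345 and 1322 CPM in the 5 stages of the control. In the DKO it was at 130, 180, 481, 1598 and 2117 CPM. The level thus climbed more than that of any other member, by 2.89 on the log2 scale from the 15 to 40% stage to the last stage in the control (95% interval 2.73 to 3.05) and by 3.55 in the DKO (3.44 to 3.67), which placed it at the 98.6th percentile of the 4124 genes measured. The gain is one of share. Per 100 cells, Psme3 UMIs went from 105 to 58.1 in the control and from 143 to 127 in the DKO, and on the all-UMI scale the log2 change was -0.21 in the control and 0.28 in the DKO.

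With the other members down, Psme3 supplied 1.38% of all proteasome UMIs in the first stage and 42.7% in the last stage of the control. In the DKO its share went from 1.69% to 63.1%. In the 11 non-erythroid classes it supplied between 0.65% (control monocyte-like cells) and 3.41% (DKO macrophage-like cells). Without Psme3, the summed level in the last stage was 1776 CPM in the control and 1237 in the DKO.

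Psmd4, the ubiquitin receptor of the 19S cap also known as Rpn10, was the only other member that was higher in the last stage, and its direction was reversed on the all-UMI scale (log2 -2.36 in the control and -2.22 in the DKO). It was at 206, 185, 198, 375 and 307 CPM in the control and at 188, 157, 147, 243 and 324 in the DKO. From the 15 to 40% stage to the last its log2 change was 0.74 (0.49 to 0.97) and 1.05 (0.88 to 1.22). Per 100 cells its UMIs went from 109 to 13.5 and from 125 to 19.4.

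**Figure D2:**
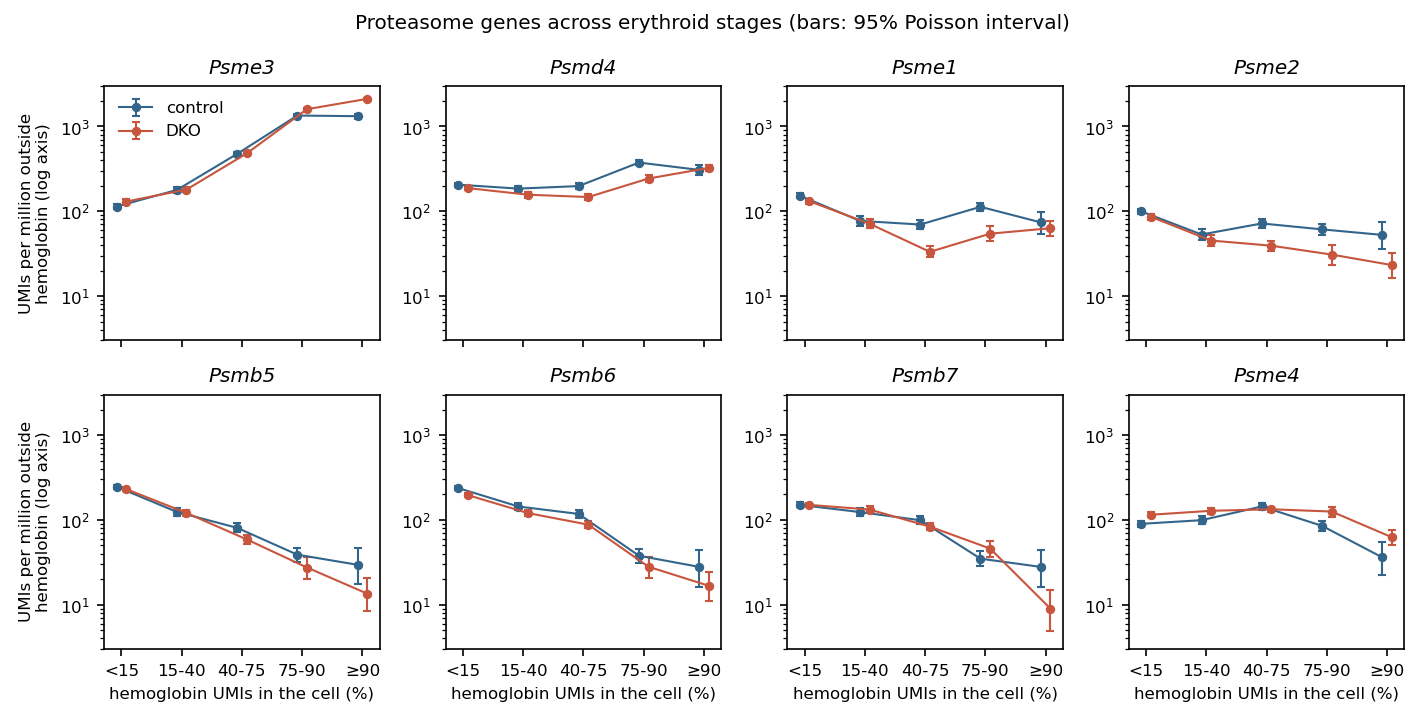
Levels of 8 proteasome genes in CPM (UMIs outside hemoglobin) (log axis) against the hemoglobin share of the cell, in control (blue) and DKO (red) erythroid cells, with 95% Poisson intervals. Psme3 climbs from 114 to 1322 CPM in the control and from 130 to 2117 in the DKO, Psmd4 stays between 147 and 375, and the catalytic subunits Psmb5, Psmb6 and Psmb7 go down in both.

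The core lost share as a block. All 7 alpha and all 7 beta subunits were lower in the last than in the 15 to 40% stage, by a median of -1.74 and -2.0 on the log2 scale in the control and -2.70 and -2.86 in the DKO. The same held for all 6 ATPases (median -2.43 and -3.16), which unfold the substrate. Among all 40 members measured, 36 were lower and 2 higher in each library, beside 81.6% of all genes lower and 9.99% higher in the control and 84.2% and 10.2% in the DKO. The members' median of -1.88 in the control and -2.95 in the DKO lay close to the medians of all genes, -1.85 and -2.74, so the list as a whole declined about as much as the typical gene.

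Psmb5, Psmb6 and Psmb7 carry the catalytic sites of the core. Psmb5 went from 124 to 29.6 CPM in the control (log2 -2.0) and from 121 to 13.5 in the DKO (-3.10). Psmb6 went from 144 to 27.9 (-2.29) and from 120 to 16.7 (-2.80), and Psmb7 from 124 to 27.9 (-2.07) and from 133 to 9.01 (-3.78). The last-stage levels rest on 14 to 26 UMIs each. By the mean of both libraries, the steepest declines were those of Psmc3ip (-2.93 and -4.69), of Psmd1, the large scaffold of the base (-3.42 and -4.09), of Psma1 of the alpha ring (-3.23 and -3.98) and of the base chaperone Psmd9 (-2.88 and -3.92).

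The activators split. While Psme3 climbed, Psme1 was nearly level between these stages (-0.03 in the control and -0.17 in the DKO), and Psme2 was level in the control (0.02) and lower in the DKO (-0.93). On the all-UMI scale these changes were -3.13 and -3.44 for Psme1 and -3.08 and -4.20 for Psme2. Psme4 was lower in both libraries (-1.40 and -1.03). The lid subunit Psmd8 (-0.79 and -0.36) and the base chaperone Psmd10 (-0.95 and -0.52) declined less than their groups, whose medians were -1.98 and -3.26 for the lid and -2.26 and -3.05 for the base chaperones.

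**Figure D3:**
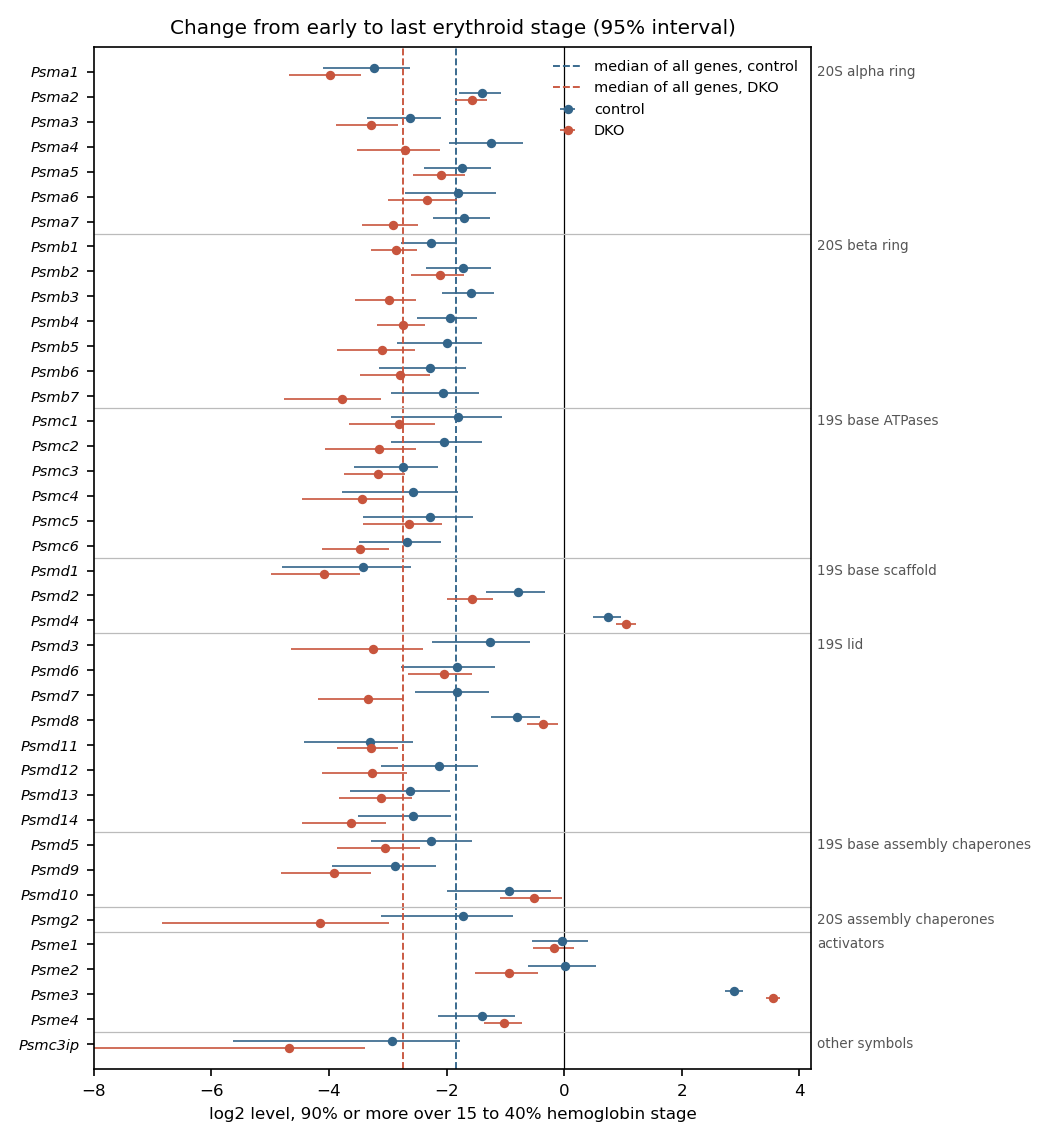
Log2 change of each measured member from the 15 to 40% to the 90% or more hemoglobin stage, in CPM, with 95% counting intervals, in control (blue) and DKO (red) cells, grouped by role, with dashed lines at the medians of all genes (-1.85 and -2.74). Psme3 at 2.89 and 3.55 and Psmd4 at 0.74 and 1.05 lie right of 0, and nearly all other members lie left of it. The axis ends at -8, where the lower DKO interval of Psmc3ip runs off.

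Free RNA from other cells could supply part of the low counts in cells with little RNA outside hemoglobin. Neutrophil markers in the erythroid stages stood at 7.94%, 7.76%, 7.42%, 18.4% and 25.6% of their level in control empty droplets in the control, and at 2.78%, 4.17%, 4.21%, 7.66% and 12.0% of it in the DKO, with all 12 markers detected in the early and late classes. By the neutrophil markers, free RNA could account for up to 2.49% of Psme3 and 12.6% of Psmd4 in the last control stage. The same bound was over 40% for 36 of the 40 members measured. By these markers, Psmd4, Psmd8, Psme3 and Psmd10 were the 4 under that share. B cell and macrophage markers stood higher in that stage, at 27.9% and 32.1% of their empty-droplet level. Bounds taken from them would be larger. With free RNA taken out of both libraries, the list's median change across the stages, averaged over the libraries, was -4.15 in place of -2.50.

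Other genes of the ubiquitin-proteasome system were counted in the same way, beside the 81.6% and 84.2% of all genes that were lower. Of 16 other proteasome proteins and regulators found, 14 were measured across the stages, and 13 in the control and 12 in the DKO were lower in the last stage, with none higher. Psmf1, the inhibitor PI31, kept its share (-0.16 and -0.22), while Pomp, the core maturation chaperone, went down (-0.79 and -2.23). Of 11 genes that deliver substrates, 8 were measured and 5 were lower in each library. None of the 3 immunoproteasome subunits was measured across the stages.

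Between the libraries, proteasome genes were on the whole modestly lower in the DKO, in erythroid and non-erythroid cells alike. Of 527 pairs of a measured member and a class, 431 had a log2 ratio of DKO to control below 0, beside 42.4% of all gene and class pairs. Of these, 81 were lower by over 0.5 and 4 higher, beside 8.42% and 11.1% of all pairs. The interval lay below 0 in 264 pairs and above 0 in 21, beside 18.6% and 27.7% of all pairs. The list's median ratio was below 0 in all 13 classes and below the median of all genes in 12, with plasma cell-like cells as the exception (-0.35 beside -0.36). On the all-UMI scale, the list's median turned positive in megakaryocyte-like (0.08) and stromal-like cells (0.01), where the scale itself moved by 0.11 and 0.20.

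The 4 genes with the lowest medians over classes among those measured in all 13 were Psmb2, Psma2, Psmd8 and Psmb3. Psmb2, a beta ring subunit, was below the control in 13 of 13 classes, by a median of -0.57, and was lower by over 0.5 in 8. Psma2 was also below in all 13 (median -0.56) and lower in 8, with its interval below 0 in every class. Psmd8, of the lid, and Psmb3, of the beta ring, were below in all 13 with medians of -0.45 and -0.43. In all, 9 of the 33 members measured in every class were below 0 in every class, beside 11.7% of 1696 genes measured in every class. Of Psmb3, 51.9% of the 3′ sequence is shared with Gm4950, and Psma2 overlaps AW209491 on the same strand, so their counts are less certain.

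Psme4 was the reverse, with a ratio above 0 in 12 of 13 classes, an interval above 0 in 10 and a median of 0.30. It was at 55.1 and 77.1 CPM in cKit+ progenitor-like cells (log2 0.48, 0.31 to 0.66), at 154 and 204 in B cell-like cells (0.41, 0.30 to 0.51) and at 77.9 and 91.2 in neutrophil-like cells (0.23, 0.13 to 0.32). In late erythroid-like cells its ratio of 0.17 became -0.05 on the all-UMI scale, and in plasma cell-like cells its ratio of -0.09 became 0.01. No class had it past 0.5.

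**Figure D4:**
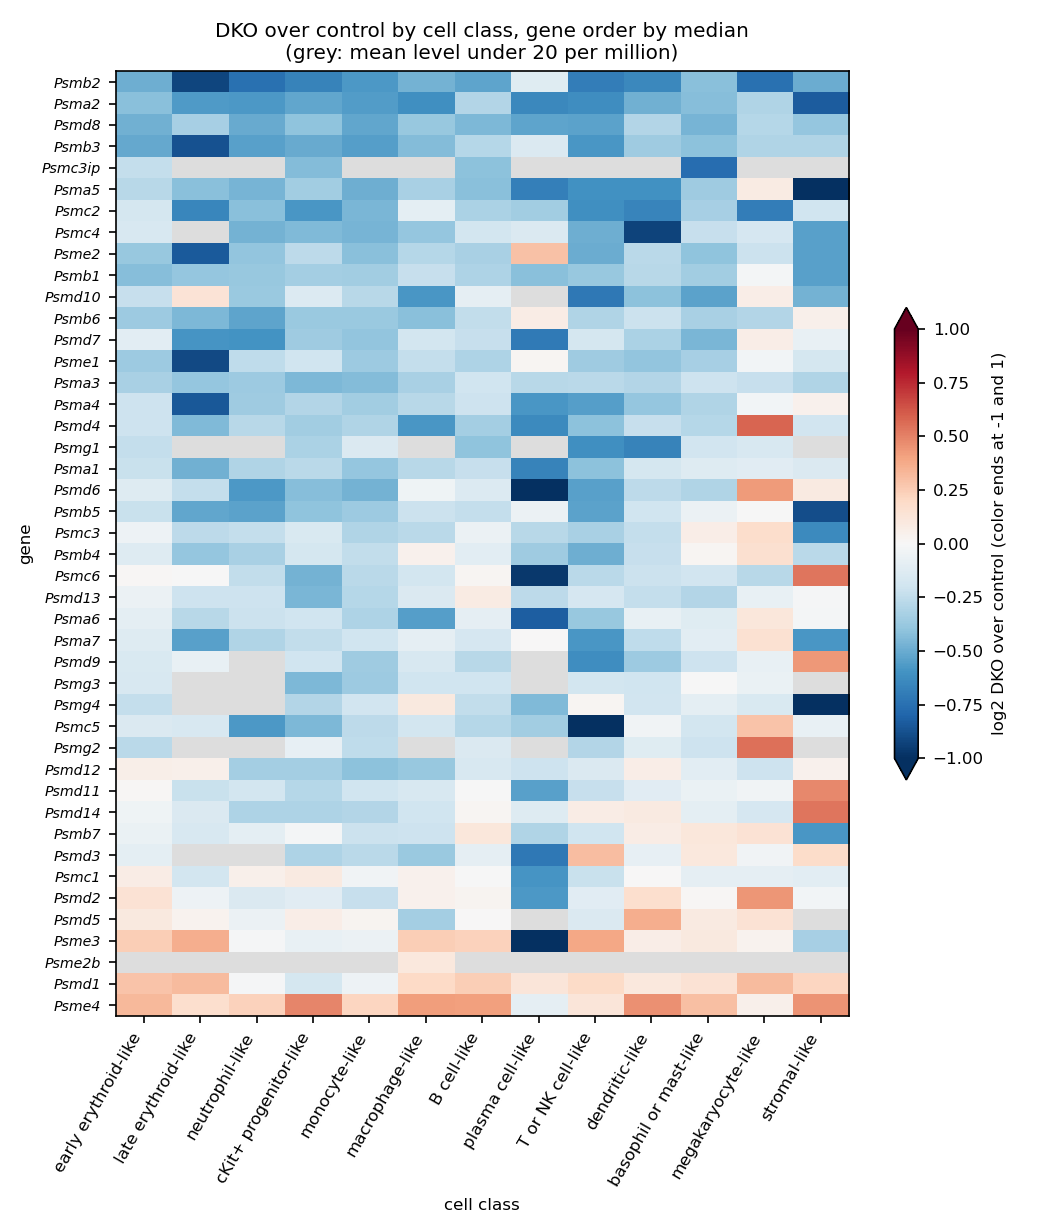
Log2 ratio of DKO to control for each member (order by median over classes) in the 13 cell classes, blue lower and red higher in the DKO, grey where the mean level is under 20 CPM, with colors ending at -1 and 1. The rows from Psmb2 down to about Psma3 are blue in nearly every class, and Psme4 and Psmd1 at the bottom are red in most.

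In early erythroid-like cells (1819 control and 1656 DKO cells), 43 members were measured and their median ratio was -0.16, beside 0.07 for all 5411 genes. The summed level was 7308 CPM in the control and 6471 in the DKO (log2 -0.18, -0.19 to -0.16). By size, 1 member was lower and 0 were higher, beside 3.7% and 4.56% of all genes. The beta ring had the lowest median (-0.36), then the core chaperones (-0.24) and the alpha ring (-0.22), with all members of each below 0. The ATPases (-0.10), the lid (-0.08) and the activators (-0.06) were nearer to 0, and the base scaffold was above it (0.14).

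Psmb3 was the member lower by over 0.5, at 383 CPM in the control and 269 in the DKO (log2 -0.51, -0.57 to -0.44). Psmb2 went from 251 to 178 CPM (-0.49) and Psmd8 from 178 to 127 (-0.48). At the other end, Psme4 was at 91.2 and 114 CPM (0.32, 0.21 to 0.44), Psmd1 at 161 and 195 (0.28) and Psme3 at 161 and 192 (0.25). Reads of Psmd1 may be shared, since 72.1% of its 3′ sequence also occurs in Gm21972. Of the catalytic subunits, Psmb5 had a ratio of -0.23, Psmb6 of -0.36 and Psmb7 of -0.07, and 61.0% of the 3′ sequence of Psmb5 is shared with Gm3375.

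In late erythroid-like cells (5911 control and 4768 DKO cells), 36 members were measured, with a median of -0.30 beside -0.08 for all 3038 genes. By size 10 were lower and 0 higher, beside 21.1% and 7.67% of all genes, so the count of 10 in 36 is little above that of genes at large. The alpha ring (-0.48) and the beta ring (-0.45) had the lowest medians, with 3 of 7 lower in each and every member below 0. The ATPases were at -0.18, the lid at -0.22, the base scaffold at -0.05 and the base chaperones at 0.03. None of the core chaperones reached the minimum. On the all-UMI scale every ratio in this class is lower by 0.22, since hemoglobin made up 82.9% of control and 85.3% of DKO UMIs, and the list's median is -0.52.

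Psmb2 was at 76.2 CPM in the control and 40.2 in the DKO (log2 -0.92, -1.16 to -0.69), and Psmb3 at 84.7 and 46.3 (-0.87, -1.09 to -0.65). Psme1 was at 93.0 and 49.8 (-0.90, -1.12 to -0.69) and Psme2 at 63.0 and 35.2 (-0.84, -1.10 to -0.59). Both subunits of PA28 alpha-beta were thus lower together, as each was in early erythroid-like cells by less (-0.36 and -0.38). In contrast, Psme3 was at 1044 and 1340 CPM (0.36, 0.31 to 0.41) and Psmd1 at 45.8 and 57.3 (0.32, 0.08 to 0.56), and both stayed above 0 on the all-UMI scale (0.14 and 0.10). Of the catalytic subunits, Psmb5 had a ratio of -0.52, Psmb6 of -0.45 and Psmb7 of -0.16, the last with an interval that spans 0 (-0.41 to 0.09).

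Because of Psme3, the sum hid part of this. The summed level of all members was 3799 CPM in the control and 3480 in the DKO (log2 -0.13, -0.15 to -0.10). Without Psme3 it was 2755 and 2140 (-0.36, -0.40 to -0.33). Markers of other cells also stood lower in the DKO, in both erythroid classes. The 12 neutrophil markers were at 18.6% of their empty-droplet level in control and 8.43% in DKO late erythroid-like cells (5.99% and 3.05% in early ones). In the late class the 10 monocyte markers were at 14.9% and 7.90%, and the 11 B cell markers at 16.8% and 9.67%. The 10 macrophage markers were at 29.9% and 14.6% in the late class. Summed, the neutrophil markers were at 6802 and 3076 CPM in the late and 2187 and 1113 in the early class, and none of them was at 0. With free RNA taken out, the list's median ratio was -0.14 in late and -0.18 in early erythroid-like cells, beside 0.07 for all genes in each. By size, 7 of 34 and 3 of 43 members were then lower, beside 11.5% and 3.55% of all genes. Taken one by one, the 5 late erythroid clusters had list medians of -0.80, -0.86, -0.41, -0.44 and -0.27, of which 4 were lower than the class value, beside -0.43, -0.56, -0.18, -0.15 and -0.15 for all genes. In the 3 early clusters the medians were -0.16, -0.07 and -0.17, beside 0.08, 0.02 and 0.04 for all genes.

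By stage, the list's median ratio was -0.07 under 15% hemoglobin (all genes 0.10), -0.10 at 15 to 40% (0.04), -0.17 at 40 to 75% (0.09), -0.31 at 75 to 90% (-0.00) and -0.74 at 90% or more (-0.60). The members lower by over 0.5 numbered 0 of 43, 0 of 40, 6 of 39, 9 of 35 and 18 of 25, beside 3.37%, 5.84%, 10.4%, 29.2% and 54% of all genes. Those higher numbered 0, 0, 0, 1 and 2, beside 6.29%, 5.34%, 18.4%, 28.5% and 11.2%. The distance from all genes was thus between 0.14 and 0.31 on the log2 scale at every stage, while the ratio itself moved with that of all genes. With free RNA taken out, the median was 0.04 over 9 members at 90% or more (all genes -0.00) and -0.05 over 24 at 75 to 90% (all genes 0.35). These medians cover fewer genes than the 25 and 35 measured as counted. By size, 2 of 9 and 4 of 24 members were then lower, beside 28.51% and 14.99% of all genes. At 40 to 75% the median was -0.18, and in the earlier stages -0.11 and -0.10.

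By point value, Psme1 differed most in the middle stages and Psme2 in the last, and differences between stages were not tested. In the last control stage, free RNA could supply up to 50.1% of Psme1 and 43.9% of Psme2 by the neutrophil markers. Psme1 was at 153 and 131 CPM under 15%, at 77.1 and 71.2 at 15 to 40%, at 69.7 and 33.2 at 40 to 75% (log2 -1.07, -1.36 to -0.78), at 113 and 54.4 at 75 to 90% (-1.04, -1.40 to -0.72) and at 74.0 and 63.1 in the last stage (-0.25). Psme2 was at 99.5 and 86.0, 53.2 and 45.1, 71.8 and 39.2 (-0.87), 61.1 and 30.8 (-0.97), and 52.6 and 23.2 CPM (-1.19). With free RNA taken out, the ratios at 40 to 75% were -1.17 for Psme1 and -0.93 for Psme2, and at 75 to 90% -1.16 and -1.05. In the last stage they were 0.04 and -1.49. Psme3 had ratios of 0.19, 0.02, 0.02, 0.25 and 0.68 over the stages, the last with an interval of 0.57 to 0.79 and a value of 0.48 with free RNA taken out and 0.50 on the all-UMI scale. Psme4 was at 36.2 and 62.4 CPM in the last stage (0.74, and 1.81 with free RNA taken out). By the neutrophil markers, free RNA could supply up to 70.0% of Psme4 there in the control. With Psme3 included, the summed level of the last stage was higher in the DKO (log2 0.11, 0.04 to 0.19), a direction that turned to -0.07 on the all-UMI scale.

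Among the lists of related genes, the immunoproteasome subunits Psmb8, Psmb9 and Psmb10 were summed at 78.8 and 50.9 CPM in early and at 56.6 and 21.6 in late erythroid-like cells. Free RNA was not taken out of these sums. Their median ratio was below 0 in all 12 classes where any of them was measured, with a middle value of -0.41. Psmb9 was at 30.4 and 15.3 CPM in early erythroid-like cells (-0.98, -1.24 to -0.73). Of the other proteasome proteins and regulators, 1 of 15 measured was higher and 0 were lower in early erythroid-like cells, beside 4.56% and 3.7% of all genes. It was Ddi2, the protease that activates Nfe2l1, at 90.2 and 140 CPM (0.64, 0.53 to 0.75). Its ratio in late erythroid-like cells was 0.03, before the shift of -0.22 that the all-UMI scale brings in that class. In late erythroid-like cells 2 of 11 measured were lower, no larger a share than the 21.1% of all genes, with Pomp among them at 52.5 and 30.3 CPM (-0.79). Over the 13 classes the substrate-delivery genes had a median above 0 in all but 1 class, where the median of all genes was above 0 in 11 of 13.

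Outside the erythroid lineage, the list's median ratio ran from -0.37 in T or NK cell-like cells to -0.03 in megakaryocyte-like cells, with a median over the 11 classes of -0.23. In neutrophil-like cells, the class with 2952 control and 3018 DKO cells of like depth (median 5121.5 and 4965 UMIs), the median was -0.33 beside 0.17 for all genes, and 9 of 36 members were lower and 0 higher, beside 3.74% and 14% of all genes. This count fell to 1 of 38 (1.77% of all genes) with only barcodes above the order-of-magnitude threshold of cell calling. With doublets kept it was 1 of 37 (1.63%). The list's median was -0.26 in each, beside 0.19 and 0.16 for all genes. In cKit+ progenitor-like cells the median was -0.31 beside 0.10, with 4 of 43 lower and 0 higher beside 2.86% and 12.3%. In monocyte-like cells it was -0.30 beside 0.09, with 4 of 42 lower and 0 higher beside 3.29% and 7.28%, and in B cell-like cells -0.20 beside 0.11, with 1 of 43 lower and 0 higher beside 2.17% and 4.73%.

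The remaining classes varied more. In T or NK cell-like cells 14 of 42 members were lower beside 8.04% of all genes, in dendritic-like cells 5 of 42 beside 6.12%, in macrophage-like cells 4 of 41 beside 6.66% and in basophil or mast-like cells 2 of 43 beside 4.13%. None was higher in these 4 classes, where 16.7%, 12.9%, 12.1% and 7.07% of all genes were. In plasma cell-like cells, with 67 and 53 cells, 15 of 36 were lower and 0 higher, beside 40.4% and 6.42% of all genes. In stromal-like cells 10 of 38 were lower and 2 higher beside 15.6% and 22.2%. Megakaryocyte-like cells had 2 lower and 2 higher of 42, beside 10.6% and 11.2%. In these last 3 classes the members' counts were near or below the shares of all genes in at least one direction.

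By role, the beta ring was the most regular. Its median was below 0 in all 13 classes, with a middle value of -0.36, and the interval of its summed level lay below 0 in all 13. The alpha ring (middle value -0.30) and the ATPases (-0.19) also had medians below 0 in all 13, and the lid (-0.19) in 12. The base scaffold was mixed, with 7 of 13 medians below 0, where Psmd4 was below 0 in 12 classes and Psmd1 above 0 in 10. The activators had medians below 0 in 11 classes, with Psme1 and Psme2 each below 0 in 12 and Psme4 above 0 in 12. On the all-UMI scale Psme1 came to 0.08 in megakaryocyte-like and 0.02 in stromal-like cells, and Psmd4 to 0.001 in stromal-like cells.

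Gene span moved with the ratio. Across genes, the log2 ratio had a Pearson correlation with log gene span of 0.40 in early erythroid-like, 0.28 in late erythroid-like, 0.57 in cKit+ progenitor-like and 0.51 in neutrophil-like cells, and of -0.03 in plasma cell-like and 0.05 in megakaryocyte-like cells, as a description over genes that share both libraries. The members measured in early erythroid-like cells had a median span of 12361 bases against 25342 for all genes. With the median of genes of like span taken out, the list's median was -0.12 in early and -0.22 in late erythroid-like cells, -0.23 in cKit+ progenitor-like and -0.33 in neutrophil-like cells. Psmb2 stayed lower (-0.62 in early and -0.87 in late erythroid-like cells), whereas Psme4, with a span of 108636 bases, came to 0.09 in both and Psmd1, with 74765 bases, to 0.05 and 0.24.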

How the data were processed

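Single-cell 3′ libraries (Chromium v3) of marrow, 1 control and 1 DKO, were analysed. The values are UMI counts per gene and barcode, which the authors made with Cell Ranger (7.1.0 per the file headers) on mm10 and deposited as matrices, with all 1194299 barcodes that held a UMI for the control and 14142 called barcodes (500 UMIs or more) for the DKO. Control cells were therefore called here, by an order-of-magnitude threshold plus a test of barcodes with at least 500 UMIs against empty droplets (10000 simulations, false discovery rate 0.01), which gave 19200. Barcodes over 20% mitochondrial UMIs (171 and 215) and Scrublet doublets (343 and 198) were left out.

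Both libraries were clustered together with scanpy 1.11.5 (2000 variable genes, 30 components, 15 neighbors, Leiden resolution 1, leidenalg 0.10.2), and clusters were named from marker lists (at least 3 markers raised 1.5-fold). Counts were summed per class and library and scaled to CPM, per 1000000 UMIs outside 10 hemoglobin genes. The log2 ratio of DKO to control used 1 added count and an exact conditional binomial 95% interval, and levels have exact Poisson intervals (scipy 1.17.1). UMIs mark molecules, and the intervals cover counting error only. No test between genotypes was made, since each has 1 library. The ratio script was tested on simulated counts. The total UMIs kept were 119233712 and 114830668, so a class's own UMIs set the precision of its values.

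Free RNA was taken out with the profile of control barcodes of at most 100 UMIs and the level of neutrophil markers. Promoters were matched by symbol to a RefSeq table (38 of 46 members) and positions by identifier to GENCODE M21 (32158 of 32285 genes). Alternatives were another scaling, other minimum levels (0 and 50 CPM), another added count, cell calling, mitochondrial limit, doublets, resolution and cell weights, and, chosen after seeing the data, the removal of free RNA and of the gene-span trend, the search for the GATA and KLF-type letters, and the shared 3′ sequence, read from the last part of the longest coding transcript.

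Named members are the catalytic subunits, all activators, members measured in no class, the 3 highest and 3 lowest ratios in each erythroid class, the 4 highest and 4 lowest changes across stages and the 3 widest and 3 narrowest ranges over classes, where all classes had to reach the minimum and the mean of both libraries' ranges was ranked. Others (Psmd8 and Psmd10 across stages, the genes lowest over classes, and the genes of related lists) were named after their values were seen. The members and lists were chosen with earlier results of these data known. The result of 1 gene of the substrate-delivery list is not reported here.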

Additional observations from a re-analysis of the deposited data

Results flagged for a closer look

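Cluster 8 was left unnamed because few markers were raised and none led it, with Il1b, Pla2g7 and Fgl2 as leading genes, and it entered no class. Its 630 control and 420 DKO cells had a summed proteasome level of 1987 CPM in the control and 1890 in the DKO, below the lowest named class. Over 33 measured members the median log2 ratio was -0.10, beside 0.10 for all genes. It stands here because these cells are outside the comparisons made.

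Control empty droplets, also outside the comparisons, held proteasome transcripts at 4439 CPM (15458 UMIs), above the level of late erythroid-like cells in either library.

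Psmd4 and Psmc6 went in opposite directions in different classes, and the difference between classes was not tested. For Psmd4, the ubiquitin receptor, the log2 ratio was 0.58 (0.33 to 0.83) in megakaryocyte-like cells, -0.59 (-0.90 to -0.29) in macrophage-like cells and -0.63 (-1.35 to 0.02) in plasma cell-like cells, a range of 1.22. For Psmc6, an ATPase of the base, it was 0.54 (-0.19 to 1.24) in stromal-like and -0.96 (-1.87 to -0.17) in plasma cell-like cells, a range of 1.5.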

How the results depend on the processing

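The list's median ratio kept its direction under every alternative run in late erythroid-like (-0.54 to -0.14) and early erythroid-like cells (-0.21 to -0.12) and as the median over non-erythroid classes (-0.29 to -0.16), and the stage change stayed below 0. Of single classes, the megakaryocyte-like median turned to 0.08 on the all-UMI scale and 0.03 with doublets kept, and the stromal-like one to 0.01 on the all-UMI scale. The count of members lower by over 0.5 moved more. In late erythroid-like cells it was 10 of 36, but 18 of 36 on the all-UMI scale, 17 of 45 with no minimum level and 4 of 17 at a minimum of 50 CPM. It was 17 of 36 with doublets kept, 18 of 35 at resolution 1.5, 21 of 36 with the mean over cells and 6 of 36 with the gene-span trend taken out. The share of all genes lower moved as well, from 21.1% to 33.8%, 47.5%, 16.2%, 33.1%, 32.8%, 34.0% and 16.4% in the same order. In early erythroid-like cells the count was 1 of 43, but 3 of 43, 2 of 46, 2 of 43, 2 of 43 and 4 of 42 under the all-UMI scale, no minimum, doublets kept, resolution 1.5 and the mean over cells. It was 2 of 43 with barcodes over the order-of-magnitude threshold only, 3 of 43 with free RNA taken out and 2 of 43 with the span trend taken out. The shares of all genes lower were 3.7% at first, then 4.97%, 23.6%, 3.77%, 3.65%, 8.85%, 3.68%, 3.55% and 4.07%. The list's median change across stages, -2.50 as a mean of both libraries, was -5.69 on the all-UMI scale and -4.15 with free RNA taken out. The change of Psmd4 across stages reversed to -2.29 on the all-UMI scale. The causes of these shifts were not tested beyond what each alternative changes by construction. In all, 53 of 70 list values and 325 of 384 values of single genes moved little, and 58 of the latter moved. The order-of-magnitude threshold left no plasma cell-like, megakaryocyte-like or stromal-like class, and resolution 0.5 no plasma cell-like class. No replicate could be left out. No paired analysis was possible because each genotype has 1 library. Depth limits the last erythroid stage most, where most members had few UMIs, and plasma cell-like and stromal-like cells.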
